A study of Homo sapiens with 47 samples.

Results

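The genes described here are the 7 members of the human HOXD cluster from HOXD1 to HOXD11, namely HOXD1, HOXD3, HOXD4, HOXD8, HOXD9, HOXD10 and HOXD11. They were taken by gene identifier and symbol out of 58051 listed genes, and all 7 were found in every library. RNA was sequenced from WA09 cells, the established human embryonic stem cell (hESC) line also called H9, in 47 bulk libraries. Of these, 35 were whole cultures and 12 were fractions.

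The whole cultures were undifferentiated cells (t0), cells at 36h that the labels call NMP-like (neuromesodermal progenitors, the posterior progenitors that form spinal cord and paraxial mesoderm), and passages P1 to P10 of their descendants, labelled PNPs/NC (pre-neural progenitors and neural crest). Each time point had 3 independent differentiations except P9, which had 2 (differentiations 1 and 2). From t0 onwards all differentiated cultures carried the same agents in N2B27 medium without vitamin A: CHIR-99021, which activates WNT signalling, FGF2, AGN193109, which blocks retinoic acid receptors, and the ROCK inhibitor Y-27632. The fractions were epithelial (EPI) and mesenchymal (MES) cells of P5 and P8, 3 each, enriched, not purified, by selective enzymatic detachment. All libraries come from 1 cell line, so the spread is that between differentiations.

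HOX genes encode homeodomain transcription factors that give cells a position along the head-to-tail axis. In each mammalian cluster the genes lie in the order in which they are switched on in the embryo, and the low-numbered genes come on earlier and reach further towards the head than the high-numbered genes. In the spinal cord, low numbers mark hindbrain and neck levels, middle numbers the forelimb and thoracic levels, and the highest numbers lumbar and sacral levels.

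In the GENCODE 29 annotation of GRCh38, all 7 members lie on the plus strand of chromosome 2. HOXD11 spans chr2:176104216-176109754, HOXD10 chr2:176108790-176119942, HOXD9 chr2:176122720-176124937, HOXD8 chr2:176129694-176132695, HOXD3 chr2:176136612-176173102, HOXD4 chr2:176151222-176153226 and HOXD1 chr2:176188579-176190907. The cluster therefore runs from HOXD11 to HOXD1 over the chromosome, and the start of HOXD11 lies 84.36 kb from that of HOXD1. HOXD10 and HOXD11 share 452 exonic bases on the same strand, which is 16.8% of the exonic bases of HOXD10 and 21.4% of those of HOXD11. HOXD4 lies inside the span of a long HOXD3 transcript. A further gene model on the same strand, AC009336.2, holds 80.5% of the exonic bases of HOXD4 and 62.2% of those of HOXD3, so the quantification had to divide reads among these models. On the opposite strand, HAGLR shares 158 exonic bases with HOXD1, and the gene model AC009336.3 covers 50.1% of the exonic bases of HOXD1. Whether the counting used the strand is not given in the sources used here, so reads of antisense partners may not be told apart.

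The sequence before the RefSeq start of 3 members is shown, HOXD3 and HOXD8 for the early genes of the series described below and HOXD11 for the late ones. The sequences are from RefSeq on GRCh38.p14, plus strand, and 6 of the 7 members had an entry (HOXD9 did not). Only bases that no GENCODE 29 exon covers are printed, which left out HOXD1, HOXD4 and HOXD10. The RefSeq starts of HOXD3 and HOXD11 lie downstream of the first base of the GENCODE spans above, so these stretches fall inside those spans, in intronic sequence of a longer transcript. Capitals mark TTTATG, a core bound by CDX and posterior HOX proteins, or the reverse complement of TGATTNAT, a core bound by PBX and HOX proteins together.
HOXD3, chr2:176157157-176157306: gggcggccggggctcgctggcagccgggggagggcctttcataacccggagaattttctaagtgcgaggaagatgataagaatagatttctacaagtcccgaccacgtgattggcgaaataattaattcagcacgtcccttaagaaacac
HOXD8, chr2:176129555-176129693: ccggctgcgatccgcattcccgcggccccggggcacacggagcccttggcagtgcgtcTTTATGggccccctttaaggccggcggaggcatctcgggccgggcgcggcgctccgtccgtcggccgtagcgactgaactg
HOXD11, chr2:176107130-176107279: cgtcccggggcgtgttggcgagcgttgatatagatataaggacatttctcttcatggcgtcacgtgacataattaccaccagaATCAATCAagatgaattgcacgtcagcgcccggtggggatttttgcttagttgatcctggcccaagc

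Over the 250 bases before the start, searched on both strands, TTTATG occurred in 9.64% of 35116 promoters and, among the 6 members, in HOXD8 alone. TGATTNAT occurred in 2.48% of promoters and, among the members, in HOXD11 alone. TTTATT occurred in 16.0% of promoters and among the members in HOXD4. The TATA box TATAAA occurred in 10.7% of promoters and in none of the 6. The retinoic acid response element was searched only as a fixed string of letters, which was also in none of the 6. That string occurred in 1 of 35116 promoters (0.00285%), too few for its absence to show whether the members lack such elements. A match describes letters in these windows and is not evidence of binding.

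Levels are given as TPM, a measure of transcript number scaled to transcript length and library, which may be compared between genes. For overlapping models such comparisons depend on how reads were divided. Tests used edgeR's quasi-likelihood test on the counts, and a gene was called where the adjusted p was under 0.01, the fold change at least 2 and its mean over the compared libraries no lower than 100 normalized counts. The 47 libraries held 13029491 to 64082859 counts, with a median of 47292229. Bulk RNA cannot tell fewer cells that express a gene from less RNA in each cell.

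The HOXD genes were near the detection limit in undifferentiated cells and rose in numerical order over the passages. Averaged over differentiations, 100 normalized counts were first reached at 36h by HOXD1, at P1 by HOXD3, HOXD4 and HOXD8, at P2 by HOXD9, at P3 by HOXD10 and at P4 by HOXD11. The 36h mean of HOXD1 rested on differentiation 3, at 270 normalized counts against 8.33 and 46.5 in differentiations 1 and 2. At t0 the 7 genes lay between 0 and 0.24 TPM in every library, with 0 to 9 expected counts each. At 36h, 0 of the 7 was called against t0 in either direction with edgeR, where 2.70% of the 21750 genes tested were called. 2 members had an unadjusted p under 0.05, and DESeq2 called 0.

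**Figure D1:**
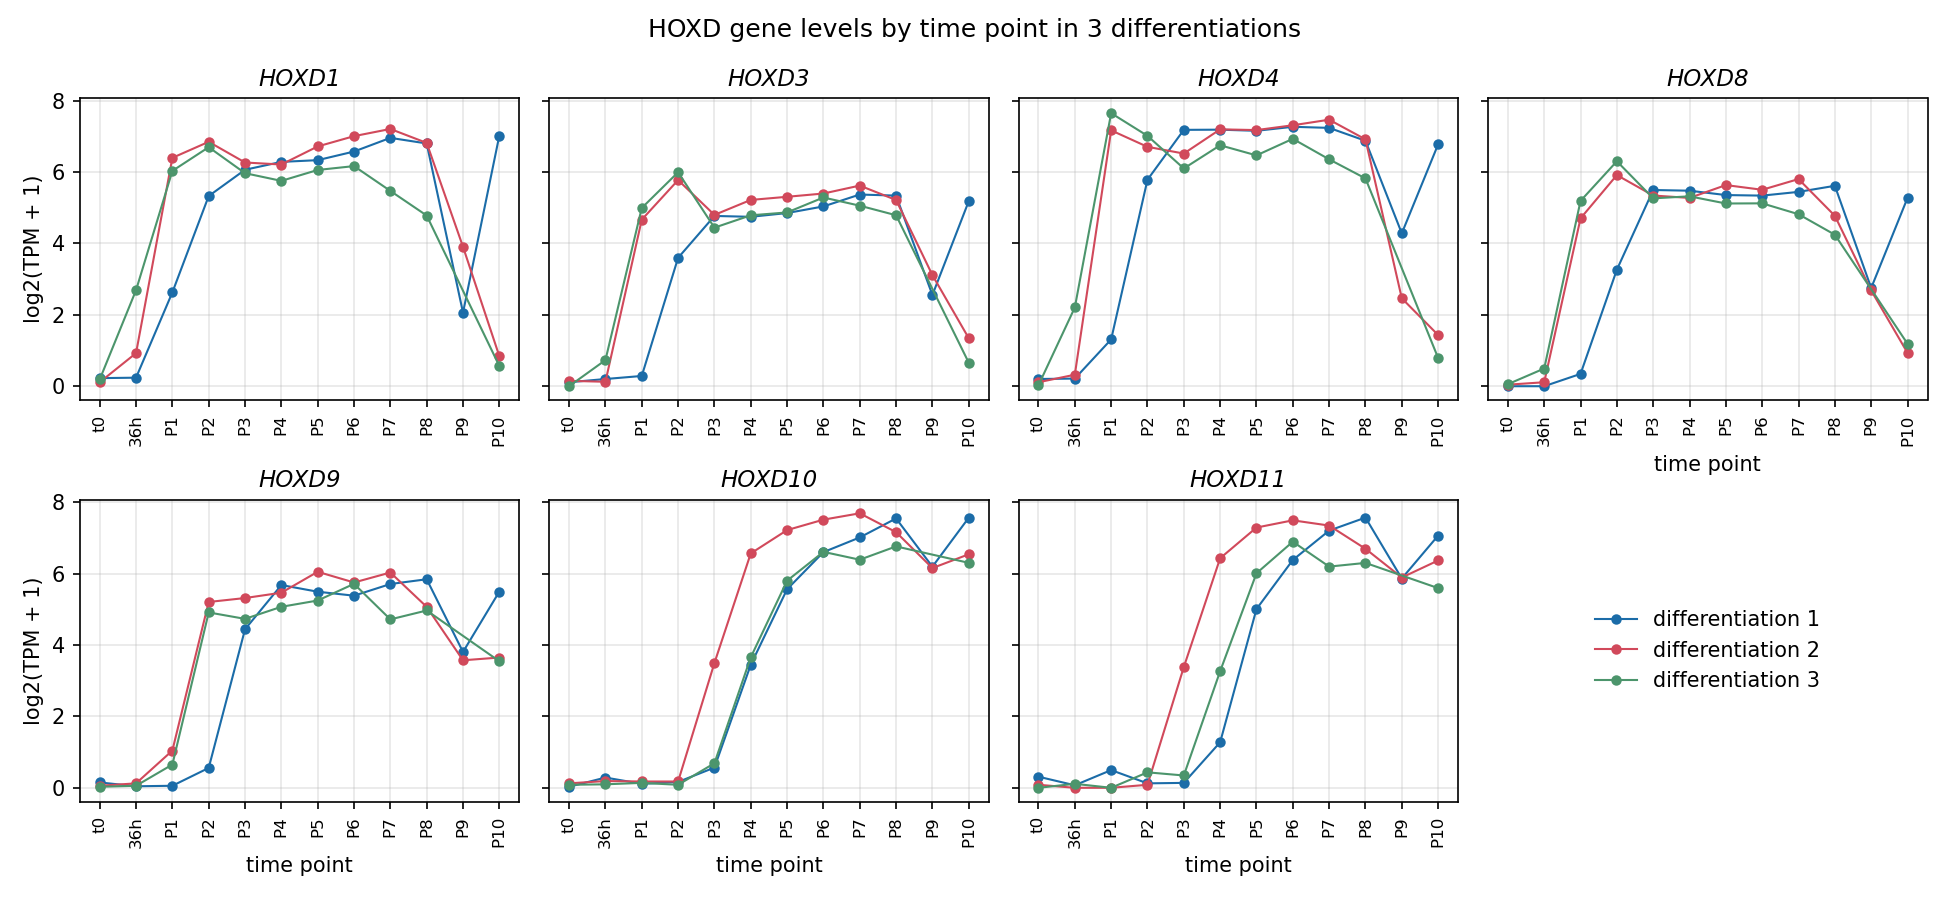
Each panel plots 1 HOXD gene as log2(TPM + 1) against time point, with 1 line for each of 3 differentiations (no library of differentiation 3 at P9, where its line runs from P8 to P10). HOXD1, HOXD3, HOXD4 and HOXD8 rise at P1 or P2, HOXD9 at P2 or P3, and HOXD10 and HOXD11 between P3 and P5, and at P10 the first 4 genes are high only in differentiation 1.

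The 36h cultures differed among themselves. HOXD1, the first gene of the cluster and a regulator of hindbrain and sensory development, was at 0.18, 0.90 and 5.45 TPM in differentiations 1, 2 and 3. HOXD4, a gene of the lower hindbrain and neck, was at 0.16, 0.25 and 3.61 TPM. In both genes differentiation 3 was the highest and differentiation 1 the lowest, within the range at t0 or just above it. HOXD8, HOXD9, HOXD10 and HOXD11 did not pass 0.41 TPM in any 36h library.

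At P1 the early block of the cluster appeared. HOXD1 was at 5.18, 83.2 and 64.3 TPM in differentiations 1 to 3. HOXD3, which acts in the neck vertebrae with its HOXA partner, was at 0.22, 24.3 and 30.8 TPM. HOXD4 was at 1.48, 142 and 199 TPM. HOXD8, a gene of trunk levels, was at 0.27, 25.0 and 35.5 TPM. In all 4 genes differentiations 2 and 3 were high and differentiation 1 was far lower. P1 against 36h called 2 of the 7 members as higher, against 0.520% of all genes. HOXD4 had a log2 fold change of 6.40 ± 1.49 (SE, adjusted p = 0.00979, edgeR) and HOXD8 one of 6.77 ± 1.42 (adjusted p = 0.00508, edgeR). HOXD3, at 5.80 ± 1.37, was just outside the threshold with edgeR (adjusted p = 0.0103), and HOXD1 was at 4.36 ± 1.37 (adjusted p = 0.0489, edgeR). DESeq2 called these 4 genes. The median log2 fold change of the members was 4.36 and that of all genes 0.00. The calls rest on differentiations 2 and 3: without differentiation 2, or without differentiation 3, edgeR called 0 members, and without differentiation 1 it called 4. A fit of only the libraries compared called 0, and edgeR with no filter on low counts called 1. The shares of all genes called in these fits are not given here.

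The P1 culture of differentiation 1 stood apart in its other genes too. POU5F1, a pluripotency factor, was at 863 TPM there and at 18.7 and 5.1 TPM in differentiations 2 and 3. TBX6, a gene of presomitic mesoderm, was at 2.9 TPM there and at 193 and 245 TPM in the others, and NKX1-2, a gene of NMPs and pre-neural tube, was at 652, 9.6 and 0.8 TPM. The part of this in the HOXD levels was not tested. With that library alone left out, edgeR called 3 members in P1 against 36h, and the share of all genes is not given for that fit.

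Differentiation 1 was the last, alone or tied with another, to reach 100 normalized counts for each of the 7 genes. HOXD1 first held 100 normalized counts at P1 in differentiations 1 and 2 and at 36h in differentiation 3. HOXD3, HOXD4 and HOXD8 first held 100 normalized counts at P2 in differentiation 1. In differentiation 2 all 3 did so at P1, and in differentiation 3 HOXD3 and HOXD8 did so at P1 and HOXD4 at 36h. HOXD9 did so at P3, P2 and P2 in differentiations 1, 2 and 3. For HOXD10 the time points were P4, P3 and P4, and for HOXD11 they were P5, P3 and P4. Within each differentiation no higher-numbered member came on before a lower-numbered one, except that HOXD4 preceded HOXD3 in differentiation 3. Several members shared a time point. In differentiation 2 HOXD1, HOXD3, HOXD4 and HOXD8 all came on at P1, and HOXD10 and HOXD11 both at P3.

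**Figure D2:**
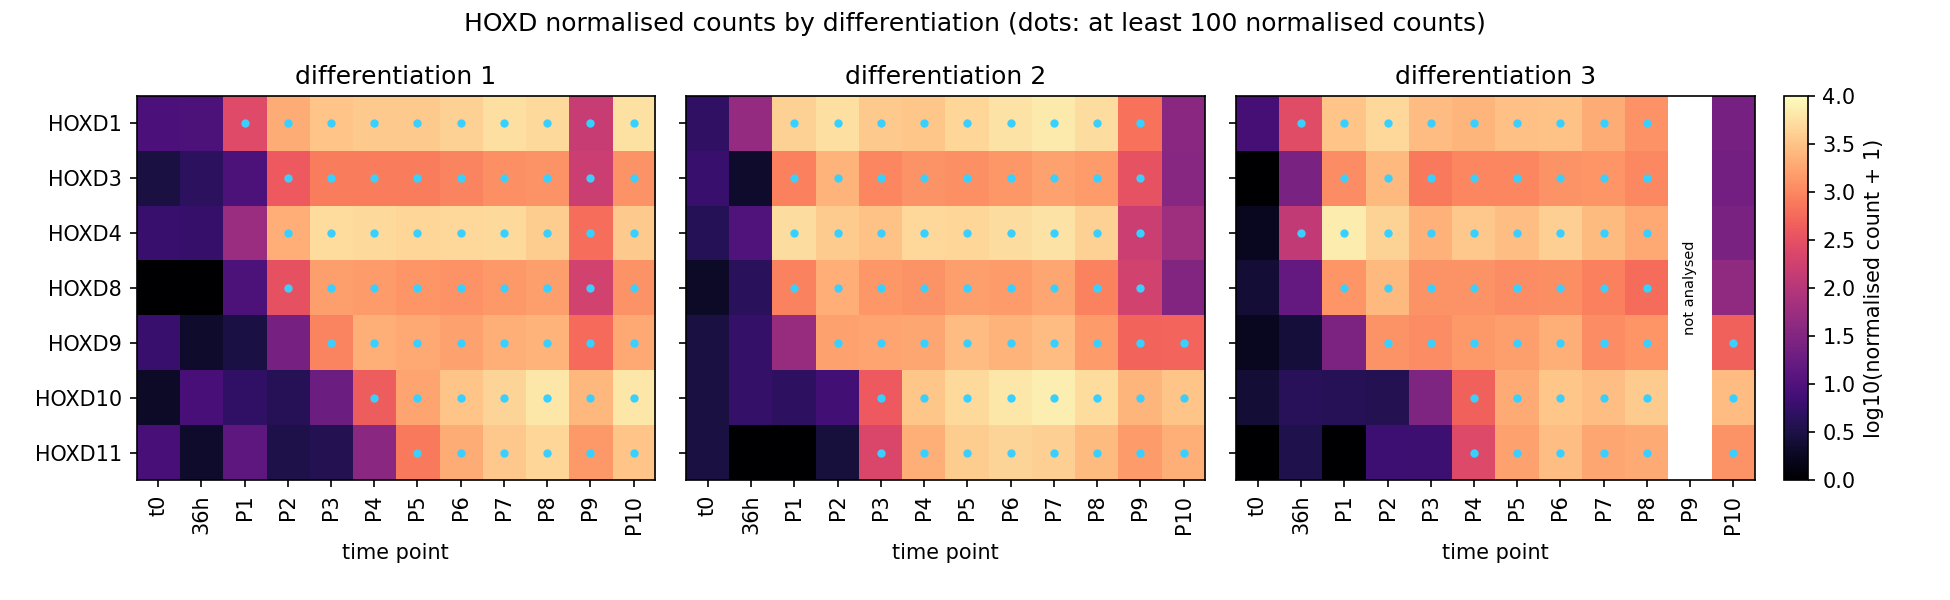
Heat maps of log10(normalised count + 1) for the 7 HOXD genes (rows) at each time point (columns), 1 map for each differentiation, with dots where a library holds at least 100 normalised counts. The dots form a staircase from HOXD1 to HOXD11, which begins later in differentiation 1 than in differentiations 2 and 3 for HOXD3, HOXD4, HOXD8, HOXD9 and HOXD11.

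At P2 the early block was high in all 3 differentiations. HOXD1 was at 39.1, 114 and 102 TPM, HOXD4 at 54.0, 103 and 128 TPM and HOXD8 at 8.60, 59.2 and 77.7 TPM. HOXD9, a gene of thoracic levels and of the limb, appeared next: from 0.04, 1.06 and 0.57 TPM at P1 it went to 0.47, 35.8 and 29.1 TPM at P2. It was high in differentiations 2 and 3 and still low in differentiation 1, which reached 20.7 TPM at P3. P2 against P1 called 0 of the 7 members with edgeR, against 0.0276% of all genes, and 1 member, HOXD9, had an unadjusted p under 0.05. Its log2 fold change was 5.12 ± 0.91 (adjusted p = 0.0142, edgeR), and DESeq2 called it. HOXD10 and HOXD11 were still at or under 0.35 TPM in every P2 library.

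HOXD10, a gene of lumbar levels and of the hindlimb, appeared at P3 in differentiation 2. Its levels were 0.12, 0.13 and 0.06 TPM at P2, then 0.48, 10.3 and 0.61 TPM at P3, then 9.89, 93.5 and 11.6 TPM at P4. HOXD11, which acts in the forearm, the sacrum and the kidney, followed the same course, with 0.09, 0.06 and 0.35 TPM at P2, 0.10, 9.42 and 0.27 TPM at P3, and 1.42, 85.1 and 8.61 TPM at P4. For both genes differentiation 2 was ahead of the other two. P3 against P2 called 0 members with edgeR (0.00920% of all genes), 2 had an unadjusted p under 0.05 and DESeq2 called 0. HOXD10 had a log2 fold change of 4.70 ± 0.88 (adjusted p = 0.0513, edgeR). P4 against P3 called 0 members with edgeR, as it did for every gene (0%), while 2 members had an unadjusted p under 0.05. HOXD10 had a log2 fold change of 3.39 ± 0.63 in that step (adjusted p = 0.171, edgeR), and DESeq2 called it.

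Across a longer interval the late genes passed the test and the early genes did not. From P1 to P5, HOXD9 rose by 6.19 ± 0.94 on the log2 scale (adjusted p = 1.13e-04, edgeR), HOXD10 by 9.52 ± 0.93 (adjusted p = 1.12e-06) and HOXD11 by 9.48 ± 1.51 (adjusted p = 1.73e-04). HOXD10 was at 46.1, 148 and 54.7 TPM at P5, and HOXD11 at 31.1, 155 and 63.3 TPM, in each case above every P1 library. These were 3 of the 7 members, and 2.13% of all genes were called as higher in P5 against P1. HOXD1, HOXD3, HOXD4 and HOXD8 had log2 fold changes of -0.19 to 0.80 with standard errors of 1.04 to 1.19. Where only the 6 libraries of P1 and P5 were fitted, 0 members were called, and without differentiation 2 or without differentiation 3 only HOXD10 was. Markers of other states were called in P5 against P1 too. As higher edgeR called 3 of 8 neural crest genes (median log2 fold change 4.24). As lower it called 3 of 5 presomitic mesoderm genes (median -6.47), against 1.88% of all genes. It also called as lower 2 of 5 pluripotency genes, 2 of 5 NMP genes and 1 of 4 neuron genes. Of 5 epithelial genes 0 were called. Their part in the HOXD levels was not tested.

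Against t0 the number of members called as higher followed the same order. P1 called 4 of 7 (HOXD1, HOXD3, HOXD4 and HOXD8), where 3.46% of all genes were called as higher. P2 called these and HOXD9 (5.92% of all genes), and P3 the same 5 (5.86%). At P3 HOXD10 had an adjusted p of 4.35e-05 with edgeR but a mean under 100 normalized counts. From P4 to P8 all 7 were called, where 6.19%, 6.44%, 6.69%, 7.30% and 7.83% of all genes were. P9 called 6 of 7 (10.2% of all genes), with HOXD8 under the mean of 100 normalized counts, and P10 called 7 (9.48%). These comparisons share the t0 libraries. Without differentiation 2 the counts fell to 0 at P1, 1 at P2 and P3, 2 at P4, 3 at P5 and P6, 4 at P7 and P8, and 3 at P9 and P10. A fit of only the libraries compared gave 0 at P1 and 3 at P10.

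From P5 to P8 no HOXD gene passed the test. HOXD10 was at 185, 142 and 107 TPM at P8, and HOXD11 at 189, 102 and 77.6 TPM. For HOXD10 the ranges at P5 and P8 overlapped, because differentiation 2 was as high at P5 as at P8. P8 against P5 called 0 of 7 members with edgeR (0.00920% of all genes), 0 had an unadjusted p under 0.05, and DESeq2 called 0. The log2 fold changes were 1.01 ± 0.57 for HOXD10 and 0.80 ± 0.92 for HOXD11, and -0.39 to 0.35 for the other 5. The steps P5 against P4, P6 against P5, P7 against P6 and P8 against P7 called 0 members as well, and 0% of all genes, with edgeR. In these 4 steps 1 member, HOXD10 in P5 against P4, had an unadjusted p under 0.05, and DESeq2 called 0.

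The mean levels ranked the genes differently at P5 and P8, with neighbours in each order within their spread. At P5 HOXD4 was the highest, at 124 ± 31.8 TPM (SD, n = 3), followed by HOXD11 at 83.2 ± 64.4, HOXD1 at 83.0 ± 19.5, HOXD10 at 82.8 ± 56.3, HOXD9 at 48.7 ± 14.7, HOXD8 at 40.7 ± 7.49 and HOXD3 at 31.5 ± 6.08. At P8 HOXD10 was first at 145 ± 39.1 TPM, then HOXD11 at 123 ± 58.2, HOXD4 at 97.1 ± 36.1, HOXD1 at 82.7 ± 48.7, HOXD9 at 39.7 ± 14.4, HOXD3 at 34.1 ± 6.65 and HOXD8 at 30.7 ± 15.5. AC009336.2, which overlaps HOXD3 and HOXD4, was at 40.0 ± 5.56 TPM at P5 and 35.7 ± 10.9 TPM at P8. The ranks of HOXD3 and HOXD4 therefore depend on how reads were divided among these models. The rank of HOXD10 and HOXD11 beside HOXD4 differed between differentiations. In differentiation 2 both were above HOXD4 at P5 already (148 and 155 against 143 TPM), and at P8 HOXD11 was below it (102 against 119 TPM). The highest mean of each gene in TPM came at P2 for HOXD3 (42.5 ± 27.5) and HOXD8 (48.5 ± 35.8), P5 for HOXD9 (48.7 ± 14.7), P6 for HOXD4 (144 ± 19.9), P7 for HOXD1 (104 ± 54.0) and HOXD11 (127 ± 47.7), and P8 for HOXD10 (145 ± 39.1).

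HOXD10 and HOXD11 together made up 0.113 ± 0.067% of the summed TPM of the 7 genes at P2 (SD, n = 3). The share was 15.1 ± 17.2% at P4, 31.3 ± 12.1% at P5 and 49.1 ± 5.74% at P8. From P5 to P8 it went from 18.9% to 50.3% in differentiation 1 and from 31.9% to 54.1% in differentiation 3, while in differentiation 2 it was 43.1% at P5 and 42.9% at P8. The mean HOX number weighted by TPM was 3.24 ± 0.62 at P1, 3.83 ± 0.55 at P2, 4.45 ± 0.30 at P3, 5.36 ± 0.97 at P4, 6.29 ± 0.78 at P5, 6.72 ± 0.43 at P6, 6.81 ± 0.15 at P7 and 7.27 ± 0.64 at P8. In differentiation 2 this number was 7.05 at P5 and 6.57 at P8. The summed level of the 7 genes did not move with the share in every differentiation. From P2 to P8 it went from 114 to 744 TPM in differentiation 1 and from 366 to 570 TPM in differentiation 2, but was 400.3 and 342 TPM in differentiation 3. At P9, where the share was 74.1% and 75.2%, the sum was 174 and 171 TPM. The share, the sum and the mean HOX number leave out AC009336.2. They depend on how reads were divided between it, HOXD3 and HOXD4.

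**Figure D3:**
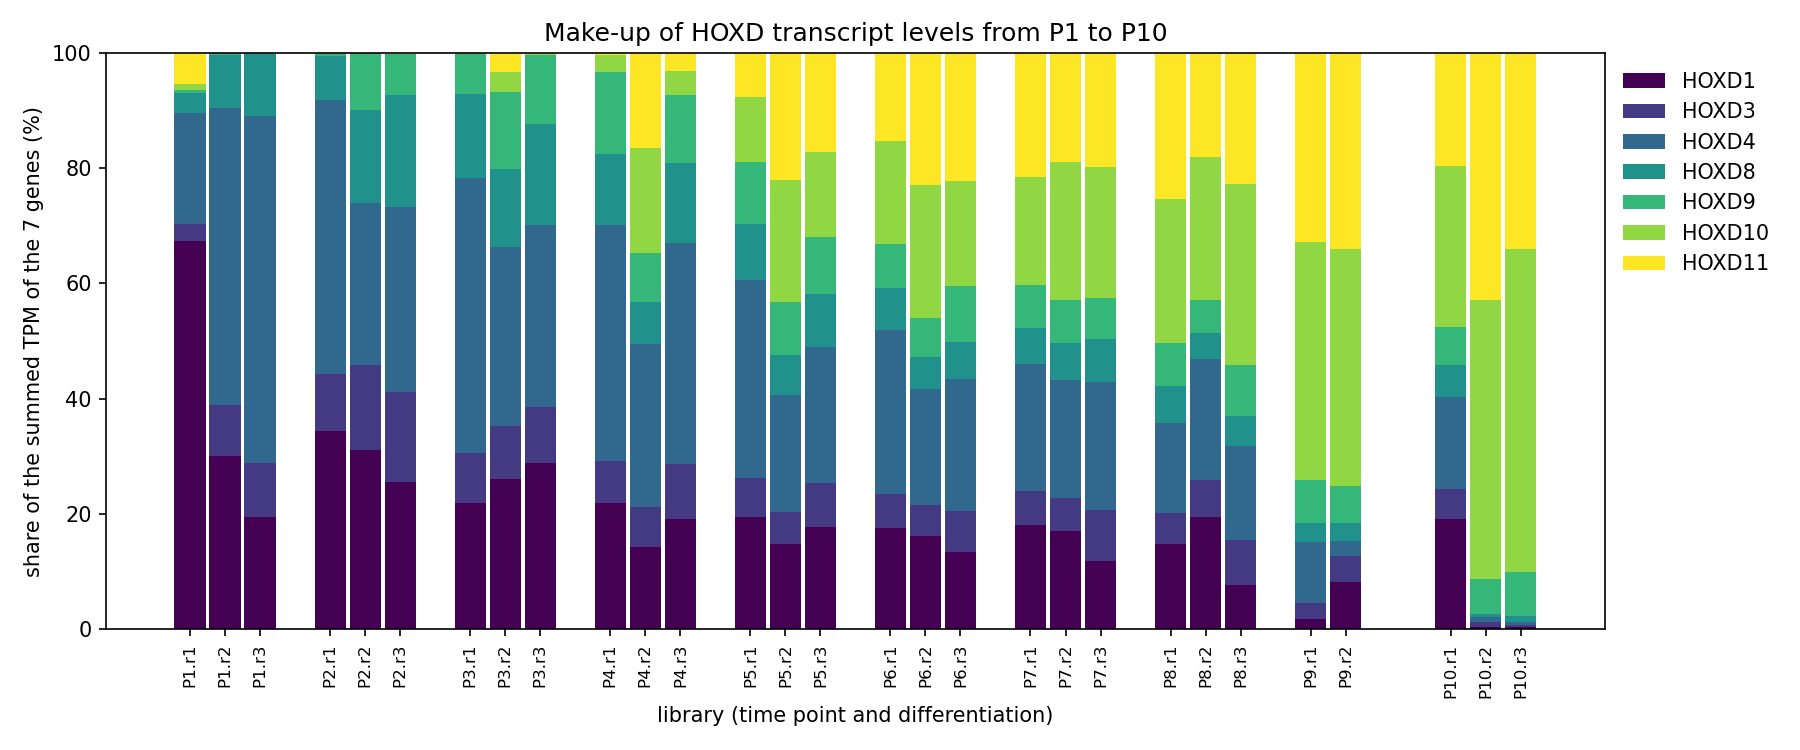
Stacked bars give the share of each gene in the summed TPM of the 7 HOXD genes (%), 1 bar for each whole-culture library from P1 to P10, grouped by time point. The yellow and light green part, HOXD11 and HOXD10, grows from a mean of 0.113% at P2 to 49.1% at P8 and fills most of the bars of P10 differentiations 2 and 3.

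At the last passages the early genes were low in all but 1 library. HOXD1 was at 110, 111 and 26.5 TPM at P8, 3.17 and 14.0 TPM at P9 (differentiations 1 and 2), and 129, 0.79 and 0.48 TPM at P10. HOXD4 was at 116, 119 and 55.4 TPM at P8, 18.4 and 4.51 TPM at P9, and 108, 1.70 and 0.73 TPM at P10. HOXD8 was at 47.9, 26.3 and 17.9 TPM, then 5.73 and 5.41 TPM, then 37.6, 0.91 and 1.28 TPM. For all 3 genes both P9 libraries lay below every P8 library, and at P10 differentiations 2 and 3 were lower still. In differentiation 1 HOXD1 was higher at P10 than at P8, and HOXD4 and HOXD8 were somewhat lower. HOXD10 was at 72.1 and 70.1 TPM at P9 and 188, 92.0 and 77.8 TPM at P10, and HOXD11 57.1 and 58.2 TPM at P9 and 133, 81.5 and 47.2 TPM at P10. For these genes too both P9 libraries lay below every P8 library. HOXD9 was at 12.97 and 10.88 TPM at P9 and 44.1, 11.5 and 10.7 TPM at P10.

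P9 against P8 called 0 of 7 members with edgeR (1.15% of all genes), while 3 had an unadjusted p under 0.05 (HOXD1, HOXD4 and HOXD9) and DESeq2 called 0. All 7 log2 fold changes were below 0, from -3.35 ± 1.53 for HOXD1 to -1.34 ± 0.67 for HOXD10. P10 against P9 called 0 members with edgeR, as it did for every gene (0%), with 0 at an unadjusted p under 0.05 and 0 with DESeq2. P10 against P8 called 0 with edgeR (0.0552%), with 0 at an unadjusted p under 0.05 and 0 with DESeq2. This last count turned on the P10 library of differentiation 1. Without it, edgeR called 4 members as lower: HOXD1 at a log2 fold change of -7.18 (adjusted p = 3.37e-04), HOXD3 at -5.81 (adjusted p = 8.58e-04), HOXD4 at -6.32 (adjusted p = 0.00307) and HOXD8 at -5.03 (adjusted p = 0.00389). Without differentiation 1 at every time point it called these 4 and HOXD9, at -1.46 (adjusted p = 0.00217). That library was chosen for leaving out because its level was known to stand apart, so these values describe the other differentiations. The share of all genes called in these refits is not given here, so their counts are not set against it.

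Some marker genes of other states differed among these libraries too. SOX2, a neural progenitor factor, was at 320, 133 and 100 TPM at P8, 4.9 and 6.0 TPM at P9, and 214, 0.5 and 0.7 TPM at P10. LIN28A, an RNA-binding protein of early progenitors, was at 681, 144 and 70.9 TPM at P8, 1.0 and 0.7 TPM at P9, and 239, 0.9 and 0.4 TPM at P10. TWIST1, a mesenchymal and neural crest factor, was at 18.6, 90.8 and 131 TPM at P8, 460 and 528 TPM at P9 and 66.4, 489 and 411 TPM at P10. Thus P10 differentiation 1 had high SOX2 and LIN28A and low TWIST1 beside the other late libraries. The rest of their lists did not all go the same way in P10 against P8, where 0 genes of either list were called with edgeR. The 5 epithelial genes had log2 fold changes from -2.29 for SOX2 to 0.25 for CDH1, and the 5 pluripotency genes from -2.39 for LIN28A to 2.70 for TDGF1. The summed level of the epithelial genes was 162 to 695 TPM at P8, 16.5 to 16.7 TPM at P9 and 5.24 to 427 TPM at P10. That of the pluripotency genes was 81.1 to 690 TPM, 4.85 to 11.9 TPM and 9.48 to 244 TPM. Of the 8 listed neural crest genes, 0 were called in P10 against P8 with edgeR. TFAP2A, SNAI1, TWIST1 and SNAI2 had log2 fold changes of 3.13, 2.64, 2.12 and 1.38, and SOX10, FOXD3, SOX9 and TFAP2B of -2.70, -2.64, -2.27 and -0.56. SOX10 was at 0.2 and 0.8 TPM and FOXD3 at 0.3 and 1.9 TPM in P10 differentiations 2 and 3. The summed level of the 8 genes was 113 to 696 TPM at P8, 1071 to 1110.0 TPM at P9 and 192 to 1005 TPM at P10. That of 4 neuron genes was 173 to 233 TPM, 158.5 to 462 TPM and 281 to 449 TPM. That of 4 lateral plate and limb genes was 0.36 to 5.47 TPM, 2.71 to 25.4 TPM and 2.90 to 10.1 TPM. In both lists 0 genes were called in P10 against P8 with edgeR. The part of these markers in the HOXD levels was not tested. The mean HOX number was 9.10 ± 0.13 at P9 (n = 2) and 9.11 ± 1.85 at P10.

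Both fractions held HOXD transcripts at P5 and P8. At P5 HOXD10 was at 51.8, 162 and 88.7 TPM in EPI and 23.6, 74.3 and 16.6 TPM in MES, and HOXD11 at 36.4, 168 and 101 TPM in EPI and 17.2, 73.1 and 15.6 TPM in MES. HOXD4 was at 141, 141 and 99.3 TPM in EPI and 61.6, 67.8 and 35.2 TPM in MES. HOXD3 was at 34.0, 39.7 and 39.1 TPM in EPI and 27.8, 27.1 and 17.9 TPM in MES. For HOXD3, HOXD4, HOXD10 and HOXD11 MES was lower than EPI in each of 3 differentiations. The ranges of HOXD3 and of HOXD4 did not overlap. HOXD8 was at 35.9, 49.9 and 41.4 TPM in EPI and 51.2, 38.6 and 32.4 TPM in MES, with no order between the fractions.

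P5 MES against EPI called 0 of 7 members with edgeR, as it did for every gene (0%). 4 members had an unadjusted p under 0.05 (HOXD3, HOXD4, HOXD10 and HOXD11), and DESeq2 called 1, HOXD10. The log2 fold changes were -1.61 ± 0.66 for HOXD11, -1.55 ± 0.47 for HOXD10 (adjusted p = 0.0815, edgeR), -1.26 ± 0.40 for HOXD4 (adjusted p = 0.0899, edgeR), -0.78 ± 0.35 for HOXD1, -0.54 ± 0.34 for HOXD9, -0.50 ± 0.20 for HOXD3 and -0.11 ± 0.28 for HOXD8. The median of the members was -0.78 and that of all genes -0.02. Where only the 6 P5 fractions were fitted, HOXD4 alone was called (adjusted p = 0.00993, edgeR). The share of all genes called in that fit is not given here.

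At P8 the log2 fold changes of MES against EPI ran from -0.84 ± 0.39 for HOXD4 to -0.52 ± 0.28 for HOXD8. MES was lower in all 3 differentiations for each of the 7 genes. Whether the genes differed from each other was not tested. HOXD10 was at 214, 141 and 126 TPM in EPI and 162, 127 and 64.1 TPM in MES, with overlapping ranges. P8 MES against EPI called 0 of 7 with edgeR, as for every gene (0%), with 1 at an unadjusted p under 0.05 (HOXD3) and 0 with DESeq2. In differentiation 3 the 7 log2 ratios of MES over EPI lay between -1.48 and -1.05 at P8. In differentiations 1 and 2 together they lay between -0.83 and -0.14.

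**Figure D4:**
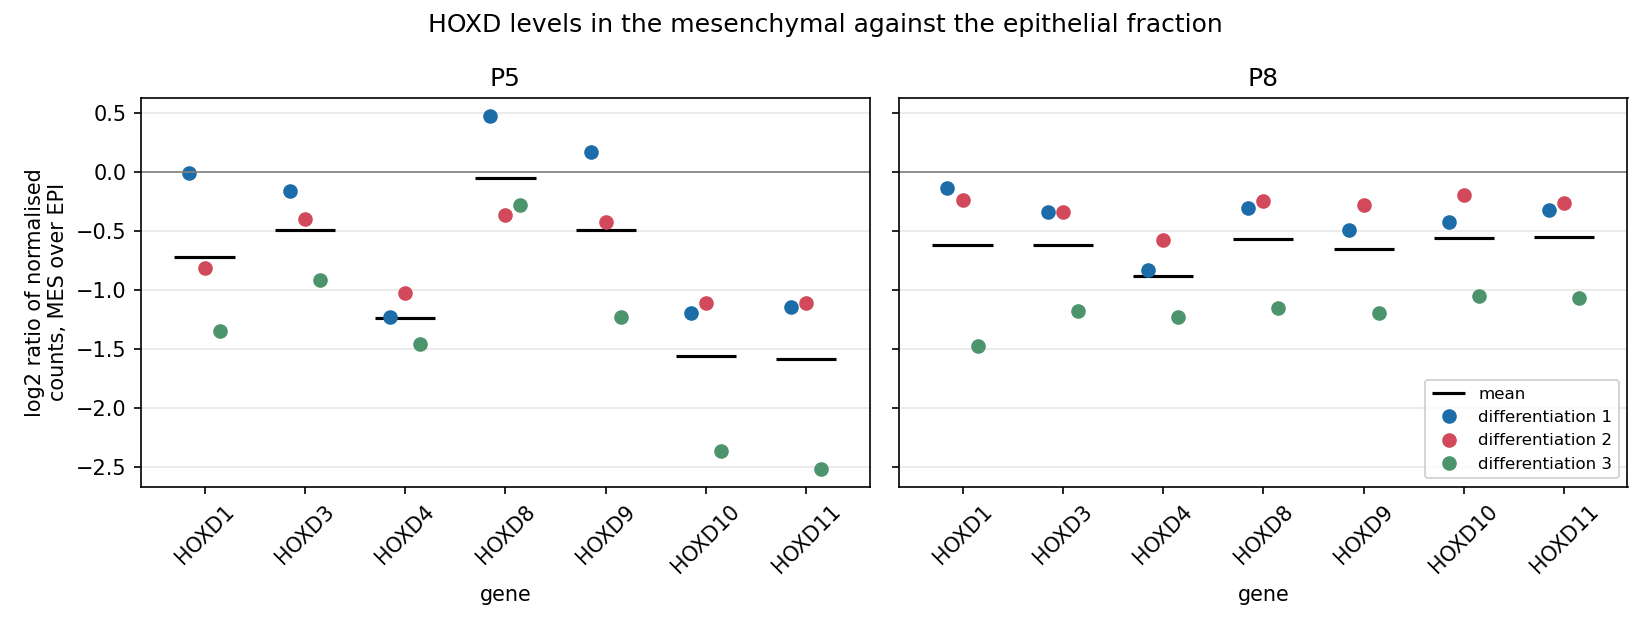
Points give the log2 ratio of normalised counts in MES over EPI for each HOXD gene in 3 differentiations at P5 (left) and P8 (right), and bars their mean. At P5 the points of HOXD4, HOXD10 and HOXD11 all lie below -1, while at P8 every point lies below 0 and those of differentiation 3 are the lowest.

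Epithelial markers remained in the MES fractions. The epithelial markers SOX2 and CDX2 were at 254, 208 and 178 TPM and 445, 329 and 257 TPM in P5 EPI, and at 92.6, 71.5 and 32.8 TPM and 155, 147 and 49.2 TPM in P5 MES. At P8 SOX2 was at 301, 143 and 105 TPM in EPI and 191, 90.4 and 30.3 TPM in MES. The crest marker SOX10 was at 0.5, 0.8 and 2.5 TPM in P5 EPI and 3.7, 7.7 and 24.0 TPM in P5 MES. At P5 the log2 fold changes of MES against EPI were -1.85 to -1.37 for the 5 listed epithelial genes and 1.18 to 3.09 for the 8 listed crest genes. At P8 they were -0.997 to 0.09, with CDH1 the highest, and -0.27 to 2.498, with SOX9 and FOXD3 below 0. With edgeR 0 of these genes were called at either passage, as for every gene (0%), so this count does not show that the markers were alike. The summed epithelial genes were at 464 to 721 TPM in EPI and 87.4 to 255 TPM in MES at P5, and at 185 to 645 and 51.8 to 446 TPM at P8. The summed crest genes were at 73.9 to 286 TPM in EPI and 445 to 648 TPM in MES at P5, and at 89.8 to 720.1 and 256 to 1039 TPM at P8. The ranges of both sums were apart at P5 and overlapped at P8. In both passages the MES fraction of differentiation 3 held the least SOX2 and the most SOX10, and it was also the MES fraction with the lowest HOXD1, HOXD4 and HOXD10. HOXD11 was lowest there in TPM, but at P5 its normalized count was 424 there and 419 in differentiation 1. Low levels in differentiation 3 were not confined to MES. At P8 its EPI fraction was the lowest EPI fraction for HOXD1, HOXD4 and HOXD10, at 60.8, 40.45 and 126 TPM. Its whole culture was also the lowest at P8, at 26.5, 55.4 and 107 TPM. Among these genes only HOXD4 was lowest in differentiation 3 in P5 EPI. The part of the remaining epithelial cells in the HOXD levels of MES was not tested.

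Within each fraction, HOXD10 and HOXD11 had the highest log2 fold changes of P8 against P5. In MES HOXD10 had a log2 fold change of 1.76 ± 0.48 (adjusted p = 0.0512, edgeR) and HOXD11 one of 1.59 ± 0.68, while HOXD8 was at -0.72 ± 0.28 and the others at -0.39 to 0.18. MES P8 against P5 called 0 of 7 with edgeR (0.784% of all genes), with 3 at an unadjusted p under 0.05, and DESeq2 called 1, HOXD10. In EPI the values were 0.78 ± 0.47 for HOXD10, 0.51 ± 0.66 for HOXD11 and -0.43 to 0.20 for the others. EPI P8 against P5 called 0 of 7 with edgeR (0.286%), with 0 at an unadjusted p under 0.05 and 0 with DESeq2. The difference between the fractions in this change (the interaction) was 0.98 ± 0.65 for HOXD10 and 1.08 ± 0.90 for HOXD11, and edgeR called 0 members and 0% of all genes, with 0 members at an unadjusted p under 0.05 and 0 with DESeq2.

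The members fell into early and late sets by likeness over the 35 whole-culture libraries. Pearson's r of log2(TPM + 1) was 0.96 to 0.99 among HOXD1, HOXD3, HOXD4 and HOXD8, and 0.99 between HOXD10 and HOXD11. It was 0.38 to 0.46 between the early and the late set, with HOXD9 between them. These values share libraries and a time course and are a description. Part of the likeness of HOXD3 with HOXD4 and of HOXD10 with HOXD11 may be reads divided between overlapping models, since the expected counts of HOXD10 and HOXD11 added up to a whole number, within 0.011, in 43 of 47 libraries. On its own HOXD10 was not whole in 35 libraries and HOXD11 in 36, so some of these sums joined counts that were whole already. The counts of HOXD3 and HOXD4 added up to a whole number in 3 libraries and those of HOXD3, HOXD4 and AC009336.2, within 0.016, in 30. Counted as 1 feature, these 3 models had a log2 fold change of 6.42 in P1 against 36h (adjusted p = 0.00982, edgeR). Counted as 1 feature, HOXD10 and HOXD11 rose from P1 to P5 by 9.49 ± 1.09 on the log2 scale (adjusted p = 6.56e-06, edgeR).

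Outside the members, the genes most like HOXD1 were HAGLR (r = 0.988), HOXC4 (0.970) and HOXB-AS3 (0.969). AC009336.2 was first for HOXD3 (0.986), HOXD4 (0.994) and HOXD8 (0.985), followed by HOXC4 (0.951, 0.980 and 0.955). HOXD9 was most like HOXA6 (0.977), HOXC10 (0.953) and RCBTB2 (0.946). HOXD10 was most like HOXA11-AS (0.987), FBXL21 (0.968) and HOTAIR (0.964), and HOXD11 most like HOXA11-AS (0.977), HOTAIR (0.973) and HOXC11 (0.966). The search covered 18699 genes with a mean of at least 1 TPM at some time point, and most of the 3 best matches for each gene were transcripts of HOX clusters.

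The other transcripts of the HOXD cluster did not all follow the members. HOXD12, next to HOXD11, was at 0.07 TPM or less on average from t0 to P3, at 7.72 TPM at P4 and at 59.6 TPM at P8, and it was called in P5 against P1 (log2 fold change 8.07 ± 1.55, adjusted p = 0.00102, edgeR). HOXD13, the last gene, was at 11.8 TPM at P5, 65.3 TPM at P8 and 274 TPM at P9, and was called as well (4.60, adjusted p = 0.00784, edgeR). HAGLR, the antisense transcript that begins near HOXD1, followed the early genes with 69.5 TPM at P1, 78.1 TPM at P8 and 9.66 TPM at P9. HAGLROS was at 5.34 TPM at P5, 6.64 TPM at P8 and 0.69 TPM at P9, and HOXD-AS2 did not pass 1.37 TPM on average at any time point. Of these 5 transcripts 2 were called as higher in P5 against P1, HOXD12 and HOXD13, against 2.13% of all genes. From P8 to P9 the means of HOXD13 went up while those of the 7 members went down, a difference that was not tested. Beyond HOXD13, EVX2 was at 0.05 TPM at P5, 2.57 TPM at P8 and 31.7 TPM at P9.

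Genes flanking the cluster were examined in the same 10 comparisons as the other lists. Of 4 genes on the MTX2 side, 0 were called by edgeR, and MTX2 itself was at 55.5 TPM at t0, 71.4 TPM at P5 and 63.5 TPM at P8. Of 5 genes on the EVX2 side 1 call was made, EVX2 in MES P8 against P5 (log2 fold change 6.51 ± 0.96, adjusted p = 0.00905, edgeR), where 0.784% of all genes were called. LNPK, the next gene beyond EVX2, was at 12.0 TPM at t0 and 44.0 TPM at P5. The passages were not tested against t0 for the flanking genes.

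The examined paralogues of the members in the HOXA, HOXB and HOXC clusters came on earlier or at the same time point. The measure was again 100 normalized counts, averaged over differentiations. Of the 15 paralogues examined, 5 were called as higher at 36h against t0 with edgeR (HOXB1, HOXA3, HOXB3, HOXB4 and HOXB8), where 1.31% of all genes were. HOXB1 was at 61.5 TPM at 36h, where HOXD1 was at 2.18 ± 2.86 TPM (SD, n = 3). HOXB3 was at 17.9 TPM there and HOXD3 at 0.30 TPM. The 36h libraries differed widely, with 8.30 to 308 TPM for the 15 paralogues summed, against 1.49 to 2.17 TPM at t0. The time points of the paralogues in each differentiation are not given here. In group 9, HOXB9 passed the measure at 36h, HOXA9 at P1, and HOXC9 and HOXD9 at P2. In group 10, HOXA10 and HOXC10 did so at P2 and HOXD10 at P3, and in group 11 HOXA11 at P3 and HOXC11 and HOXD11 at P4. The difference between clusters was not tested. From P1 to P5, 6 paralogues were called as higher (HOXA9, HOXC9, HOXA10, HOXC10, HOXA11 and HOXC11), against 2.13% of all genes, and 1 as lower (HOXB1), against 1.88%, while HOXD1 had a log2 fold change of 0.54 ± 1.19.

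Among 23 regulators of posterior patterning, of which 22 were tested, 7 were called as higher at 36h against t0 with edgeR (1.31% of all genes) and 0 as lower. They were CDX1, CDX2, TBXT, WNT8A, FGF8, FGF17 and MEIS2. CDX2, a homeodomain factor that acts on HOX genes of the trunk, was at 0.20 TPM at t0, 108 TPM at 36h, 261 TPM at P5, 174 TPM at P8 and 7.25 TPM at P9. From P1 to P5 1 was called as higher (2.13% of all genes) and 2 as lower (1.88%). GDF11, a TGF-beta family signal of the trunk-to-tail transition, rose by 2.17 ± 0.28 on the log2 scale (adjusted p = 1.80e-05, edgeR), from 21.1 TPM to 85.7 TPM. CDX1 and WNT8A fell. MEIS1, a HOX cofactor, was called in P1 against 36h as higher (0.520% of all genes), and in P8 against P5 as lower in EPI (-2.49 ± 0.33, adjusted p = 0.00992, edgeR) and in MES (-2.82 ± 0.32, adjusted p = 0.00541, edgeR), where 0.286% and 0.784% of all genes were called in either direction.

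HOXD3, HOXD8, HOXD10 and HOXD11 have several transcripts in the annotation, and their mean length as RSEM gave it was read in libraries with at least 100 counts. HOXD1, HOXD4 and HOXD9 have 1 transcript each in GENCODE 29, and their length was the same at every time point read. The mean for HOXD8 lay between 1433 and 1476 bases from P1 to P9. HOXD3 varied more, with 1637 ± 235 bases at P2 (SD, n = 3), 1409 ± 95.4 at P5 and 1598 ± 146 at P8. For HOXD10 it was 1741 ± 146 bases at P4 (SD, n = 3), 1588 ± 88.6 at P5 and 1516 ± 11.9 at P8. HOXD11 was at 1125 ± 7.65 bases at P5 and 1101 ± 6.03 at P8. These lengths depend on how reads were divided among overlapping models.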

How the data were processed

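Poly(A) RNA of 47 libraries was read as 75-base single ends. The authors trimmed reads with cutadapt 1.16, aligned them to GRCh38 with STAR 2.5.2b and quantified genes with RSEM 1.3.0 (submitters' processing notes). The deposited estimated counts (RSEM expected counts) and TPM per gene were used as deposited. Transcript lengths came from the same files. Counts were rounded, normalized by TMM factors and tested with edgeR 4.0.16 (R 4.3.3) by quasi-likelihood F tests with Benjamini-Hochberg adjustment. The standard errors of log2 fold changes were derived from these tests, as the absolute log2 fold change over the square root of F. One fit held the 35 whole cultures (21750 genes) and another the 12 fractions (18885 genes), with the experiment number as a block, since the labels say that each experiment gave all time points. Over 13293 genes, deviations of same-numbered libraries correlated at 0.195 on average, against -0.096 for others. By step the value for same numbers lay between 0.205 and 0.583, except for 36h against t0 (-0.0067), P9 against P8 (0.0103) and P10 against P9 (0.0203). DESeq2 1.42.0 and other settings served as alternatives, and the edgeR script was tested on simulated data. Symbols came from GENCODE 29, which named 57447 of 58051 genes. The members, lists and tests were chosen with earlier results of these data known, and the named genes are all members, the fixed lists and the 3 genes most like each member. 1 gene of the list of paralogues is not reported here. Leaving out the first differentiation at P1 or at P10 was chosen from those earlier results. Summing overlapping neighbours, and leaving out the 2 shallowest libraries, were chosen after seeing the data.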

Additional observations from a re-analysis of the deposited data

How the results depend on the processing

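The number of members called stayed within 1.5 times with DESeq2 size factors in edgeR, without the replicate block, in the 4 comparisons refitted without P1 replicate 1, and without the 2 shallowest libraries. Against counts of 2 in P1 against 36h and 3 in P5 against P1, the fit with no replicate block gave 3 in each, and it moved no other count. DESeq2 gave 4 in P1 against 36h, 1 in P2 against P1, 1 in P4 against P3, 1 in P5 MES against EPI and 1 in MES P8 against P5. With no filter on low counts P1 against 36h gave 1. A fit of only the libraries compared gave 0 in P1 against 36h, in P5 against P1 and in P1 against t0, 3 in P10 against t0 and 1 in P5 MES against EPI. Without P10 replicate 1, P10 against P8 gave 4 and P10 against t0 gave 3. Leaving out each differentiation in turn gave 0 to 4 calls in P1 against 36h, 0 to 1 in P2 against P1, P4 against P3 and P9 against P8, 1 to 3 in P5 against P1 and 0 to 5 in P10 against P8. Against t0 it gave 0 to 4 at P1, 1 to 5 at P2, 1 to 6 at P3, 2 to 7 at P4, 3 to 7 at P5 and P6, 4 to 7 at P7 and P8, 3 to 5 at P9 and 3 to 7 at P10. In each of these comparisons against t0 from P2 to P8 the lowest count came without differentiation 2. The other counts were 0 throughout. Fewer libraries leave fewer degrees of freedom, and otherwise the cause was not tested. Shares of all genes called are given for the main fits, not for these alternatives. With 100 normalized counts required in every library, each member came on 1 time point later, and P1 replaced 36h for HOXD1. With a mean of 1 TPM or of 10 normalized counts HOXD4 came on at 36h and HOXD11 at P3, and with 10 normalized counts HOXD3 also at 36h and HOXD9 at P1. The time point of the highest mean moved for each of the 7 members when 1 differentiation was left out. Weighted by normalized counts, the mean HOX number was 6.28 at P6, 6.34 at P7 and 8.73 at P9. Among members the direction of each change with an unadjusted p under 0.05, or called in some setting, held under every alternative. The depth limits values at t0 and 36h, where several genes have 0 to 9 counts.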

Other observations

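Partners of HOX proteins had their own course in these cultures. MEIS1 and MEIS2, homeodomain cofactors of HOX proteins, were at 0.30 and 0.43 TPM at t0, 35.5 and 49.4 TPM at P1, and 2.34 and 2.78 TPM at P8. PBX3, another cofactor, was at 34.3 TPM at t0 and 9.35 TPM at P8. KDM6B, a demethylase of the repressive histone mark H3K27me3, was at 8.17 TPM at t0, 22.1 TPM at P5 and 56.7 TPM at P9, and EZH2, which writes that mark, was at 52.6, 136 and 109 TPM. RARB, a retinoic acid receptor and target, was at 0.06 TPM at t0, 1.44 TPM at P8 and 11.02 TPM at P9. None of these values was tested against the HOXD levels.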
